A study of Rattus norvegicus with 9 samples.

Results

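Small leucine-rich proteoglycans (SLRPs) are secreted proteins of the extracellular matrix, and 10 genes of the family (*Dcn*, *Lum*, *Bgn*, *Fmod*, *Omd*, *Ogn*, *Prelp*, *Aspn*, *Podn*, and *Epyc*) were examined among the 35362 genes of the table. The family was chosen because *Dcn* was known to be far lower in both visceral groups, so the values of *Dcn* against subcutaneous cells are given as a description, with no test. Of the 10 genes, 9 were found by symbol and *Podn* by its RefSeq gene identifier, under the name LOC102552895. Counts were present for 8 of them, and 7 (*Dcn*, *Lum*, *Bgn*, *Prelp*, *Podn*, *Fmod*, and *Epyc*) passed the filter on low counts.

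SLRPs have a core protein built of leucine-rich repeats, and most carry chains of chondroitin, dermatan, or keratan sulfate. They bind collagen fibrils and set the thickness and spacing of the fibrils, and several of them hold growth factors such as TGF-beta in the matrix. In fat tissue they are made mainly by fibroblast-like stromal cells, from which adipose stem cells are grown.

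The cells were adipose-derived mesenchymal stem cells of male Sprague Dawley rats aged 6 weeks, from subcutaneous fat of the groin (SASCs), perirenal fat (PASCs), and epididymal fat (EASCs). They were released with collagenase, selected by adherence to plastic, given no treatment or genetic change, and sequenced at passage 3, with 3 samples in each group. The methods describe 6 wells in each group and the sources used here do not say whether the 3 samples came from separate rats, so p-values measure the spread between these samples, which may be technical. The stem cell markers *Thy1*, *Nt5e*, *Cd44*, and *Eng* were detected in all 9 samples, at 56.3 CPM (the read count relative to the TMM-scaled size of a sample) or more, while of the same list *Cd34* was at 0.424 to 0.860 CPM in PASCs, *Dpp4* at 1.64 CPM or less in both visceral groups, and *Ly6c* at 0 throughout. Of the leukocyte and macrophage markers, *Ptprc* was at 3.22 CPM or less, and *Lyz2*, *Cd68*, and *Cd14* reached 89.8, 36.9, and 30.3 CPM in EASCs.

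The samples held 17591916 to 30299032 counts each, and 3 counts corresponded to 0.104 to 0.159 CPM. Genes of ribosomal RNA took 10.4% to 15.5% of the counts of SASCs, 22.4% to 32.9% of those of PASCs, and 15.9% to 40.3% of those of EASCs. Reads could be counted both for Rn45s and for the rRNA genes inside it, so these shares and the totals may be too high. The counts were scaled by TMM, and without this scaling the median log2 fold change (log2FC) of all tested genes moved to -0.39 in EASCs and -0.33 in PASCs against SASCs.

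The sequences before the transcription starts of *Lum*, *Podn*, and *Fmod* are shown because these 3 genes had the clearest differences besides *Dcn*: *Lum* and *Podn* were low in both visceral groups and *Fmod* was high in EASCs alone. Each is the 250 bases before the start in the RefSeq promoter table of GRCr8, at chr7:34245456-34245705 (+ strand) for *Lum*, chr5:128025058-128025307 (- strand) for *Podn*, and chr13:48045317-48045566 (+ strand) for *Fmod*. Capitals mark matches, on either strand, to the motifs described next.
Lum: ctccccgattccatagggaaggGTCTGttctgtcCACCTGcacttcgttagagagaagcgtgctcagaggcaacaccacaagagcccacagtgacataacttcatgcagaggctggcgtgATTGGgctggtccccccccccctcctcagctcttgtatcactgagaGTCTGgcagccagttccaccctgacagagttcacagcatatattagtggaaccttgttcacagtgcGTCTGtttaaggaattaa
Podn: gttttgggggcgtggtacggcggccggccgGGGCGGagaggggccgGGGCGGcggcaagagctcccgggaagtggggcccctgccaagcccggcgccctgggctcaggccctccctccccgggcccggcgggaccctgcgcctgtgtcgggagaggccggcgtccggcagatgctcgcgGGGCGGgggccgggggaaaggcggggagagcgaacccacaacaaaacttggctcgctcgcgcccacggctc
Fmod: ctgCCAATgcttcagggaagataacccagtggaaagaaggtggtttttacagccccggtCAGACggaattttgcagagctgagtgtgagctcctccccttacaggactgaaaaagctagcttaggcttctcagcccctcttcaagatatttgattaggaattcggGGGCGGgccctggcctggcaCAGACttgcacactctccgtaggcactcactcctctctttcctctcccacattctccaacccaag

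The motifs searched were GGAATG (TEAD factors), GGGCGG (the GC box), CCAAT (the site of NF-Y), TATAAA (the TATA box), CAGAC (SMAD factors), TGANTCA (AP-1), and CACCTG (SNAI factors). *Lum* held 3 matches to CAGAC and 1 each to CCAAT and CACCTG. *Podn* held 3 GC boxes and no other of these motifs, in a window of 77.6% G and C, while the windows of *Lum* and *Fmod* had 52.8% each and the median of all windows was 52.0%. *Fmod* held 2 matches to CAGAC and 1 each to the GC box and CCAAT. Among 27457 windows of the same length, CAGAC was found in 42.8%, CCAAT in 34.3%, the GC box in 32.4%, CACCTG in 15.6%, TATAAA in 13.1%, GGAATG in 11.8%, and TGANTCA in 6.36%, counting windows with at least 1 match. The table held windows for 7 members, and the windows of *Epyc*, *Omd*, and *Aspn* had no match to any of the motifs. *Dcn*, *Bgn*, and *Prelp* had no entry.

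Decorin (*Dcn*, chr7:38742250-38782282) binds collagen I fibrils and TGF-beta and carries a single chondroitin or dermatan sulfate chain. In SASCs its level was 7024, 6900, and 6716 CPM in the 3 samples, against 209, 215, and 230 CPM in PASCs and 320, 289, and 294 CPM in EASCs. The group means were 6880 ± 155, 218 ± 10.7, and 301 ± 16.6 CPM (SD, n = 3 each), which is 31.6-fold lower in PASCs and 22.9-fold lower in EASCs. All EASCs lay above all PASCs, and this difference, which did not enter the choice of the family, was 0.47 on the log2 scale (standard error, SE, 0.0609, adjusted p = 6.81e-07 by edgeR), or 1.38-fold. Without TMM it was 0.39 (adjusted p = 0.102). In cultures of bulk cells, fewer cells of a type that makes the transcript and less transcript in each cell cannot be told apart, and this holds for all values that follow.

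**Figure D1:**
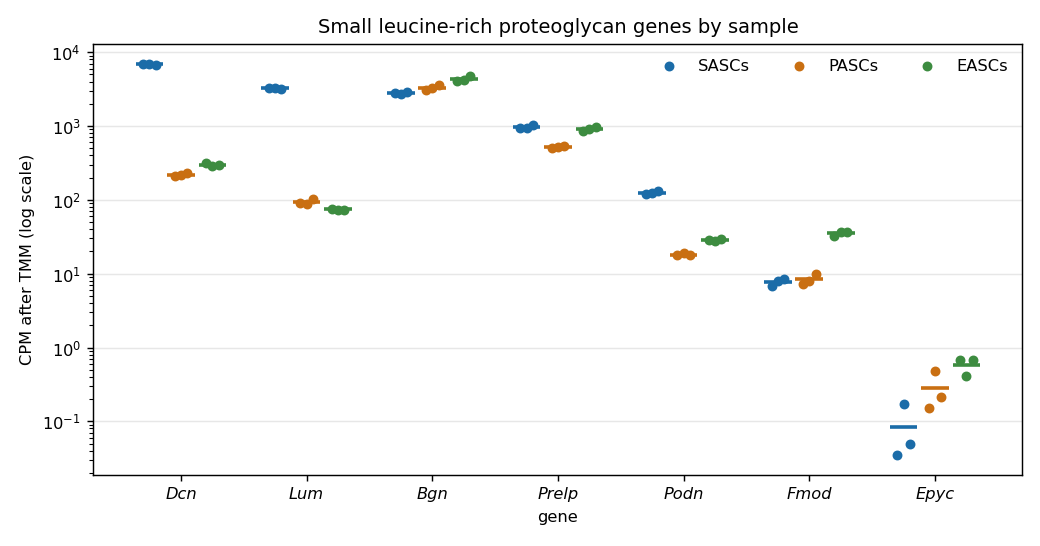
The CPM after TMM (log scale) of the 7 SLRP genes that passed the filter in each sample, with points for samples, short lines for group means, and colors for the 3 depots. Dcn and Lum stand at 3217 CPM or more in SASCs and at 320 CPM or less in every PASC and EASC sample, Bgn is between 2714 and 4741 CPM in all 9 samples, and Fmod is raised in EASCs alone.

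Lumican (*Lum*, chr7:38820058-38826862), which carries keratan sulfate and binds fibrillar collagen, lies next to *Dcn*, with 37.8 kb and no other gene between them. *Lum* was at 3243, 3240, and 3217 CPM in SASCs, against 90.2, 86.6, and 102 CPM in PASCs and 75.3, 73.7, and 73.3 CPM in EASCs. No sample of one group reached into the range of another. *Lum* was downregulated 34.8-fold in PASCs (log2FC -5.12, SE 0.0705, adjusted p = 6.07e-28) and 43.6-fold in EASCs (-5.45, SE 0.0717, adjusted p = 9.55e-29). Between the visceral groups *Lum* was lower in EASCs, by -0.33 (SE 0.0626, adjusted p = 1.64e-04), which is the opposite order to *Dcn*. Without TMM this last difference was -0.40 (adjusted p = 0.0905).

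Podocan (*Podn*, chr5:127617482-127632677) is a more distant member with a part in matrix and smooth muscle growth. *Podn* was at 120, 123, and 132 CPM in SASCs, 17.9, 18.8, and 17.7 CPM in PASCs, and 28.3, 28.0, and 29.9 CPM in EASCs. The 3 groups did not overlap, with PASCs lowest. *Podn* was downregulated 6.86-fold in PASCs (log2FC -2.78, SE 0.0668, adjusted p = 3.47e-23) and 4.35-fold in EASCs (-2.12, SE 0.0636, adjusted p = 3.94e-21), and EASCs exceeded PASCs by 0.66 (SE 0.0702, adjusted p = 2.04e-08). The gene overlaps LOC103692437 on the same strand, whose counts were 168 to 232 (SASCs), 13 to 34 (PASCs), and 27 to 46 (EASCs) per sample, against 2701 to 3452, 335 to 504, and 668 to 690 counts of *Podn*. How reads shared by both were counted is not given in the sources used here.

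Biglycan (*Bgn*, chrX:157319042-157331204) is the closest relative of *Dcn*, carries chondroitin or dermatan sulfate chains, and in soluble form signals through Toll-like receptors. It did not follow *Dcn*. *Bgn* was at 2809, 2714, and 2938 CPM in SASCs, 3116, 3234, and 3555 CPM in PASCs, and 4103, 4196, and 4741 CPM in EASCs, and the 3 groups did not overlap. The increase in EASCs was 1.54-fold (log2FC 0.62, SE 0.0664, adjusted p = 3.67e-09), and without TMM it was 0.22 (adjusted p = 0.241). In PASCs the difference from SASCs was 0.23 (SE 0.0661, adjusted p = 0.00359), and it turned to -0.092 (adjusted p = 0.652) without TMM, where the median of all genes was -0.33. EASCs exceeded PASCs by 0.40 (SE 0.0662, adjusted p = 2.84e-05), or by 0.31 (adjusted p = 0.232) without TMM.

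Prolargin (*Prelp*, chr13:50749526-50773934) links the matrix to basement membranes through heparan sulfate. *Prelp* was at 934, 951, and 1028 CPM in SASCs, 501, 526, and 544 CPM in PASCs, and 857, 918, and 971 CPM in EASCs. PASCs lay below all other samples, while EASCs and SASCs overlapped. *Prelp* fell 1.85-fold in PASCs (log2FC -0.89, SE 0.0594, adjusted p = 2.66e-13) and EASCs exceeded PASCs by 0.80 (SE 0.0593, adjusted p = 1.41e-11). Between EASCs and SASCs the difference was -0.09, with a 95% interval of -0.20 to 0.03 (adjusted p = 0.199), and without TMM it was -0.48 (adjusted p = 0.00647). *Prelp* overlaps LOC102557118 on the other strand, which had 82 counts in all 9 samples together.

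Fibromodulin (*Fmod*, chr13:50874886-50885503) carries keratan sulfate and controls the growth and cross-linking of collagen fibrils. *Fmod* was at 6.88, 7.90, and 8.35 CPM in SASCs, 7.19, 8.07, and 9.90 CPM in PASCs, and 32.9, 36.2, and 37.1 CPM in EASCs. EASCs lay above every other sample, and PASCs and SASCs overlapped. *Fmod* was upregulated 4.61-fold in EASCs against SASCs (log2FC 2.21, SE 0.109, adjusted p = 3.36e-16) and 4.26-fold against PASCs (2.09, SE 0.108, adjusted p = 8.48e-15). Between PASCs and SASCs the difference was 0.12, with a 95% interval of -0.12 to 0.35 (adjusted p = 0.403), and its sign turned to -0.20 without TMM and to -0.0051 without PASCs replicate 3.

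Epiphycan (*Epyc*, chr7:38897278-38934989), a cartilage member, was close to the limit of detection. The SASC samples had 1, 4, and 1 counts, the PASC samples 4, 13, and 4, and the EASC samples 16, 10, and 15. It passed the filter through EASCs, where all 3 samples exceeded the 0.403 CPM that the filter asks for, against 1 sample of PASCs and 0 of SASCs, so a difference had to be present. The summed counts of 41 in EASCs and 6 in SASCs gave a ratio of 7.02, with an exact 95% counting interval of 2.96 to 20.2. The fitted log2FC was 2.73 (SE 0.705), and no p-value is given for it because the filter fixed its direction. For PASCs, with 21 counts, the ratio was 3.55 (interval 1.39 to 10.8; log2FC 1.75, SE 0.780, adjusted p = 0.0491), and the adjusted p rose to 0.0691 with DESeq2 and to 0.335 without PASCs replicate 2, the sample with 13 counts. These intervals cover counting error only.

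The 3 members of chromosome 17 had hardly any counts. Osteoglycin (*Ogn*) and osteomodulin (*Omd*, chr17:15476100-15484048), which acts in bone, were listed at 0 in all 9 samples, and asporin (*Aspn*), a member that binds TGF-beta and collagen, had 12 counts in total in 4 samples. In the table *Ogn* spans 861362 bases (chr17:14607442-15468803) and *Aspn* 865187 bases (chr17:14655958-15521144), for exon lengths of 6192 and 7046 bases. *Nol8*, a nucleolar protein gene that spans 863604 bases of the same stretch, had 2 counts in total, while *Iars*, an aminoacyl-tRNA synthetase gene inside it with a span of 46663 bases, had 11836. Levels of *Ogn* and *Aspn* are therefore not read from these entries, beyond that they are listed at or near 0. *Omd* lies within the span of *Aspn* but spans 7949 bases itself, and its 0 is likewise given only as listed.

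Genes were counted as differentially expressed (DEGs) at more than 2-fold and an adjusted p under 0.05, and 27.8% of the 14770 tested genes were DEGs between EASCs and SASCs, 14.2% downregulated and 13.6% upregulated. Besides *Dcn*, 6 members were tested, of which 2 were downregulated (*Lum* and *Podn*) and 2 upregulated (*Fmod* and *Epyc*), and *Bgn* and *Prelp* were no DEGs. Without the limit on the fold, 69.7% of all genes and 5 of these 6 members passed, and the samples did not overlap for 72.1% of all genes and for 5 members. Between PASCs and SASCs, where 26.9% of genes were DEGs (14.9% down, 12% up), 2 were downregulated (*Lum* and *Podn*), *Epyc* was upregulated at the margin given above, and 3 were no DEGs. Here 69.2% of all genes and 5 of the 6 members passed without the limit on the fold, and 71.6% of all genes and 4 members did not overlap. *Bgn* and *Epyc* did not pass in this comparison without TMM. Both comparisons share the SASC samples. Between EASCs and PASCs 7.39% of genes were DEGs (2.2% down, 5.19% up), and *Fmod* was the DEG among the 7 tested members. At an adjusted p under 0.05 without a limit on the fold change, where 30.7% of genes passed, and 41.2% did not overlap, 6 of the 7 members did both between EASCs and PASCs: *Dcn*, *Bgn*, *Prelp*, *Podn*, and *Fmod* were higher and *Lum* was lower in EASCs. Of these, *Dcn*, *Lum*, and *Bgn* did not pass without TMM. Without *Epyc*, which had to differ, 2 of 5 were downregulated and 1 upregulated in EASCs, and 2 and 0 in PASCs, and 4 of 5 passed in each without the limit on the fold.

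**Figure D2:**
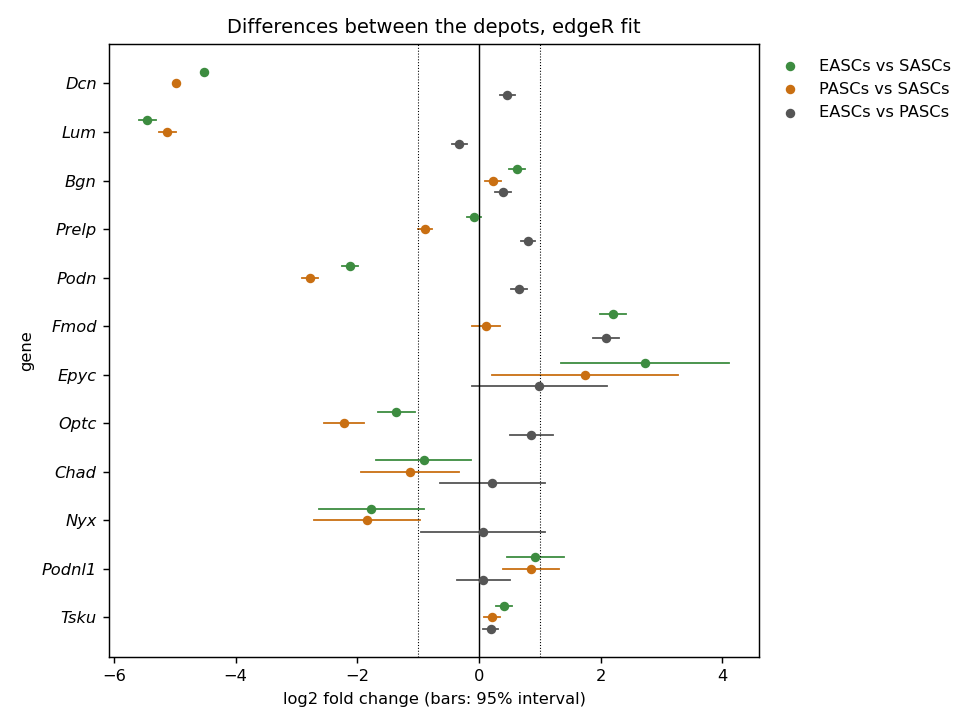
Log2 fold changes (horizontal axis, points) with 95% intervals (bars) of the 7 SLRP genes that passed the filter and 5 related genes in the 3 comparisons, without bars for Dcn against SASCs, which is a description, with dotted lines at a fold change of 2. Dcn, Lum, and Podn lie far to the left in both comparisons with SASCs, Bgn lies between 0 and 1 in all 3, and Fmod lies near 2 in both comparisons of EASCs and near 0 between PASCs and SASCs.

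To set the members beside each other, CPM was divided by the exon length that the table gives for each gene. On this scale of CPM per kb, the sum over the 10 members of SASCs was 7050 ± 59.9, that of PASCs 1658 ± 109, and that of EASCs 2222 ± 149 (SD, n = 3 each). Without *Dcn* and *Lum* the sums were 1425 ± 57.9, 1485 ± 98.6, and 2015 ± 154 (SD, n = 3 each), so the lower totals of the visceral groups lay in these 2 genes. *Dcn* made up 53.2% ± 0.876 of the sum in SASCs, 7.17% ± 0.114 in PASCs, and 7.41% ± 0.772 in EASCs. *Bgn* made up 16.5% ± 0.686, 82.0% ± 0.272, and 80.5% ± 0.945, and *Lum* 26.5% ± 0.181, 3.25% ± 0.141, and 1.94% ± 0.147 (SD, n = 3 each). Among the 7 members that passed the filter, the most abundant transcript was therefore *Dcn* in every SASC sample and *Bgn* in every PASC and EASC sample. *Ogn*, *Omd*, and *Aspn*, whose levels are not read, entered the sums at or near 0. The share of *Prelp* was 3.07% in SASCs, 7.05% in PASCs, and 9.18% in EASCs, and that of *Fmod* was at most 0.541% in any group mean. These shares are a description, since *Dcn* enters each of them.

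**Figure D3:**
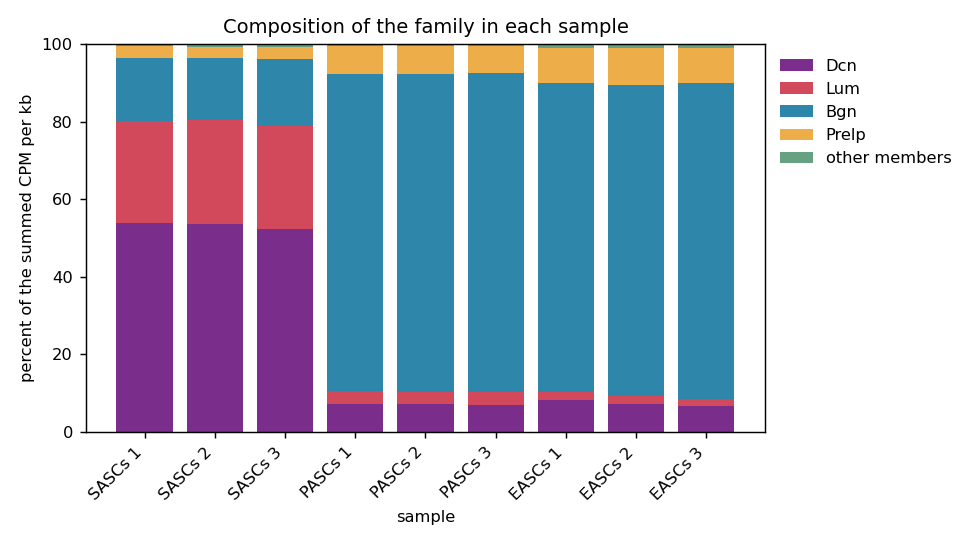
The share of each SLRP gene (percent of the summed CPM per kb of the 10 members, vertical axis) in each of the 9 samples (bars). Dcn and Lum fill about 80% of every SASC bar, and Bgn about 80% of every PASC and EASC bar.

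The levels per kb of *Dcn*, *Lum*, *Bgn*, *Prelp*, *Podn*, and *Fmod* stood in that order in SASCs, at 3753, 1871, 1161, 216, 45.3, and 2.62 CPM per kb. In PASCs the order was *Bgn* (1359), *Dcn* (119), *Prelp* (117), *Lum* (53.9), *Podn* (6.58), and *Fmod* (2.85), and *Dcn* and *Prelp* differed by less than the SD of either, 5.85 and 4.80. In EASCs it was *Bgn* (1789), *Prelp* (204), *Dcn* (164), *Lum* (42.9), *Fmod* (12.0), and *Podn* (10.4). Among 21519 protein-coding genes ordered by mean CPM per kb, *Dcn* held place 3 in SASCs, 432 in PASCs, and 292 in EASCs, while *Lum* held places 6, 984, and 1262. *Bgn* held places 16, 20, and 14. The ratio of *Dcn* to *Bgn* was 3.24 ± 0.182 in SASCs, 0.0875 ± 0.00168 in PASCs, and 0.0922 ± 0.0106 in EASCs, and the ratio of *Dcn* to *Lum* was 2.01 ± 0.0369, 2.21 ± 0.114, and 3.82 ± 0.161 (SD, n = 3 each).

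The likeness of other genes to *Dcn* was measured as the root mean square difference of log2 CPM, centred on each gene's mean, over the 9 samples, in which the 3 samples of a group share their source. The closest gene was *Gpc3*, a cell surface heparan sulfate proteoglycan, at 0.190, with 45.4 CPM in SASCs, 1.22 in PASCs, and 1.84 in EASCs. Its fitted log2FCs were -5.19 in PASCs and -4.62 in EASCs. *Cdkn1c*, an inhibitor of cyclin-dependent kinases, followed at place 4 (0.294), with -5.51 and -5.06, and *Npr3*, the clearance receptor of natriuretic peptides, at place 5 (0.297), with -4.43 and -4.44. Places 2 and 3 fell to LOC102550696 and *Trim63*, which were at 2.16 and 2.69 CPM in SASCs and at 0 in PASCs, so their distance from *Dcn* is set by the prior count of 2 and is not a measured likeness. *Lum* came at place 12 of the 14770 genes (0.412) and *Podn* at place 343 (1.09), and the other tested members lay at place 3764 or beyond.

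Several members are neighbours in the genome. On chromosome 7, *Dcn*, *Lum*, *Kera*, and *Epyc* follow each other with gaps of 37.8, 31.2, and 31.8 kb and no gene between, and *Kera*, the keratocan gene of the cornea, was listed at 0. *Dcn* and *Lum* were low in the visceral groups, while *Epyc* had more of its few counts there. On chromosome 13, *Optc*, *Prelp*, and *Fmod* follow each other with gaps of 0.6 and 101.0 kb. *Optc*, the opticin gene of the eye, had means of 10.3 ± 1.34, 2.19 ± 0.179, and 3.99 ± 0.485 CPM (SD, n = 3 each) in SASCs, PASCs, and EASCs, and it was downregulated in PASCs (-2.22, SE 0.168, adjusted p = 3.87e-12) and in EASCs (-1.36, SE 0.155, adjusted p = 1.37e-08). *Optc* and *Prelp* were thus lowest in PASCs, while *Fmod* was highest in EASCs.

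Of 7 other small leucine-rich repeat matrix genes, 5 were tested. *Nyx*, the nyctalopin gene, was lower in EASCs (-1.77, SE 0.441) and PASCs (-1.84, SE 0.444), at a mean of 1.21 CPM in SASCs. It passed the filter through SASCs, since 0 PASC samples and 1 EASC sample exceeded its limit. A difference therefore had to be present, and no p-value is given. *Chad*, which encodes a cartilage protein that binds integrins, was downregulated in PASCs (-1.13, SE 0.411, adjusted p = 0.0166) and was at -0.91 (adjusted p = 0.0457) in EASCs. *Tsku*, the tsukushi gene, an inhibitor of growth factor signals, rose by 0.41 in EASCs and 0.22 in PASCs (adjusted p = 3.08e-06 and 0.00444), and *Podnl1*, a relative of *Podn*, rose by 0.93 and 0.85 (adjusted p = 0.00115 and 0.00251), both without being DEGs. *Ecm2*, which had 28 counts in total, was not tested.

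The genes that build, carry, and cut the proteoglycans were taken from lists of general knowledge. Of 22 enzymes of chondroitin and dermatan sulfate chains, 2 were downregulated and 4 upregulated in EASCs, and 2 and 3 in PASCs, where the shares of all tested genes were 14.2% down and 13.6% up in EASCs and 14.9% and 12% in PASCs. *Chst15*, which adds a further sulfate to chondroitin sulfate, was at 80.6 ± 4.36 CPM in SASCs, 15.9 ± 0.529 in PASCs, and 5.13 ± 0.343 in EASCs (SD, n = 3 each), with a log2FC of -2.34 (SE 0.0746, adjusted p = 1.68e-20) in PASCs and -3.97 (SE 0.0865, adjusted p = 3.02e-24) in EASCs. *Dsel*, an epimerase that turns chondroitin into dermatan sulfate, was downregulated at -1.34 and -1.06 in the same order (adjusted p = 1.67e-13 and 1.76e-11). *Chsy1*, which extends the chains, was upregulated at 1.32 and 1.83 (adjusted p = 1.11e-16 and 5.3e-20), and the sulfotransferases *Chst13* and *Chst3* were upregulated from 0.501 and 0.697 CPM in SASCs to 3.97 and 1.5 CPM in PASCs and 2.69 and 3.0 CPM in EASCs. The PASC and SASC samples of *Chst3* overlapped (log2FC 1.11, SE 0.360, adjusted p = 0.00792).

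Of 8 tested enzymes of keratan sulfate, the chain of *Lum* and *Fmod*, 1 was downregulated and 2 upregulated in EASCs (14.2% and 13.6% of all genes), and 1 and 1 in PASCs (14.9% and 12%), so the counts in PASCs were near the shares of all genes. *B4galt4*, a galactosyltransferase, was downregulated at -1.60 (adjusted p = 6.78e-13) in PASCs and -1.77 (adjusted p = 9.47e-14) in EASCs, and *B3gnt7*, which extends the chain, was upregulated at 2.62 and 3.08 (adjusted p = 2.39e-08 and 6.64e-10) from 0.521 CPM in SASCs. *Chst1*, the keratan sulfate galactose sulfotransferase, was at 7.07 ± 1.3 CPM in SASCs, 8.53 ± 1.41 in PASCs, and 21.2 ± 1.74 in EASCs (SD, n = 3 each). Like *Fmod*, it was a DEG in EASCs against SASCs (1.59, SE 0.130, adjusted p = 1.83e-11) and against PASCs (1.31, SE 0.127, adjusted p = 3.25e-09), and its difference between PASCs and SASCs was 0.28 (adjusted p = 0.0788).

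Of 8 tested genes of sugar and sulfate supply, 2 were downregulated in both visceral groups, and 2 were upregulated in EASCs and 1 in PASCs. Of all genes, 14.2% were down and 13.6% up in EASCs and 14.9% and 12% in PASCs, so 1 of 8 is near the share of all genes. *Slc26a2*, a sulfate transporter, was downregulated at -1.30 in PASCs and -1.45 in EASCs (adjusted p = 2.85e-13 and 2.81e-14), and *Slc35b3*, which carries the sulfate donor PAPS into the Golgi, at -1.43 and -1.31 (adjusted p = 4.67e-14 and 2.31e-13). *Ugdh*, which makes the sugar donor UDP-glucuronate, was upregulated at 1.10 and 1.08 (adjusted p = 8.52e-16 and 1.12e-15). *Bpnt1*, a phosphatase that clears the by-product of sulfation, rose by 0.93 and 1.09 (adjusted p = 1.59e-09 and 5.69e-11).

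Of 22 binding partners and receptors, 6 were downregulated and 6 upregulated in EASCs (14.2% and 13.6% of all genes), and 6 and 5 in PASCs (14.9% and 12%). Without *Bmp4*, which passed the filter with 0 SASC samples, 5 were upregulated in EASCs and 4 in PASCs. *Tgfb3*, a TGF-beta ligand that SLRPs bind, was at 36.0 ± 0.927 CPM in SASCs, 141 ± 1.80 in PASCs, and 520 ± 6.35 in EASCs (SD, n = 3 each), with a log2FC of 1.96 (SE 0.0557, adjusted p = 1.29e-21) in PASCs and 3.85 (SE 0.0578, adjusted p = 1.19e-27) in EASCs. *Tgfb2* was upregulated in EASCs (2.14, adjusted p = 4.31e-20) and rose by 0.42 in PASCs (adjusted p = 1.64e-05). *Tlr4*, a receptor for soluble biglycan, was downregulated at -2.41 in PASCs and -2.26 in EASCs (adjusted p = 4.5e-19 and 1.51e-18), and *Lrp1*, the receptor that takes up decorin, at -1.91 and -1.90 (adjusted p = 1.16e-17 and 1.23e-17). *Bmp4*, a growth factor, was under 1.3 CPM in every group mean, at 0.0905 CPM in SASCs, 0.725 in PASCs, and 1.23 in EASCs.

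Of 8 tested proteases that process or cut SLRPs, 4 were downregulated and 1 upregulated in EASCs (14.2% and 13.6% of all genes), and 5 and 1 in PASCs (14.9% and 12%). The count of 5 DEGs in EASCs was 6 to 8 when a replicate was left out, with 8 without PASCs replicate 3. Leaving out a replicate also reran the filter, which could admit genes of the list not tested in the main fit. *Mmp3* and *Mmp13*, for example, had 2 SASC samples and 0 visceral samples over its limit. The larger counts are therefore not read as a change among the 8 tested genes. *Mmp2*, a gelatinase, was at 4337 ± 134 CPM in SASCs, 830 ± 6.87 in PASCs, and 567 ± 18 in EASCs (SD, n = 3 each), with a log2FC of -2.39 (SE 0.0584, adjusted p = 5.18e-23) in PASCs and -2.94 (SE 0.0598, adjusted p = 7.08e-25) in EASCs. *Mmp14*, the membrane protease that activates it, was downregulated at -2.65 and -1.96 (adjusted p = 9.44e-24 and 3.06e-21). The aggrecanases *Adamts4* and *Adamts5* were downregulated at -2.22 and -1.44 in PASCs and -1.34 and -1.77 in EASCs (the highest adjusted p was 1.01e-11). *Tll1*, a protease of the family that cleaves the propeptides of SLRPs, was upregulated in PASCs (1.25, adjusted p = 2.69e-12) and rose by 0.64 in EASCs (adjusted p = 1.19e-06). *Bmp1*, of the same family, went the other way from a mean of 135 CPM in SASCs, against 13.1 CPM for *Tll1*. It was downregulated in PASCs (-1.05, adjusted p = 1.88e-15) and fell by 0.74 in EASCs (adjusted p = 2.91e-12).

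**Figure D4:**
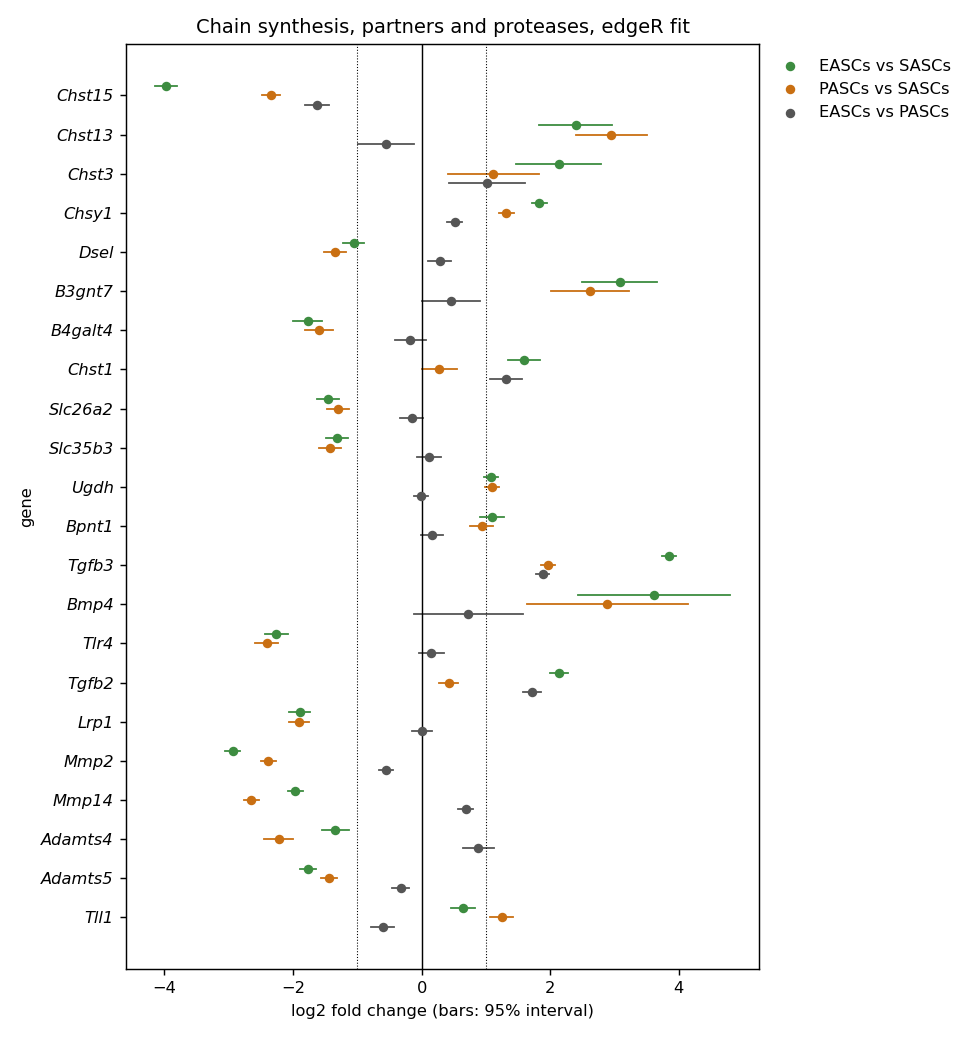
Log2 fold changes (horizontal axis, points) with 95% intervals (bars) in the 3 comparisons for 22 genes, up to 5 DEGs with the largest change from each list of chain enzymes, sulfate and sugar supply, binding partners, and proteases, with dotted lines at a fold change of 2. Chst15, Chst3, Tgfb3, Tgfb2, and Chst1 differ between EASCs and PASCs by more than 1 on the log2 scale, whereas Lrp1, Ugdh, and Slc35b3 lie near 0 in that comparison.

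Markers of other cell types moved with the groups. The counts of these markers stand beside shares of all genes of 14.9% down and 12% up in PASCs and 14.2% and 13.6% in EASCs. The summed level of 10 mesothelial markers ranged from 21.6 to 23.4 CPM over the SASC samples, 227 to 229 over the PASC samples, and 192 to 206 over the EASC samples, and *Krt18* was at 0 in every SASC sample. Of the 8 tested, 8 were upregulated in PASCs and 7 in EASCs, which includes *Upk3b* and *Krt18*, whose direction was fixed because they passed the filter through the visceral groups alone. The sum of 7 smooth muscle markers was 196 to 209, 2934 to 3231, and 6544 to 6904 CPM in the same order, and that of 11 leukocyte and macrophage markers 55.9 to 59.7, 129 to 137, and 204 to 213 CPM. All 7 smooth muscle markers were upregulated in both visceral groups, and of the leukocyte markers 6 in PASCs and 10 in EASCs. These include *Cd74* and *Aif1*, which had 1 SASC sample over the limit of the filter, and without them 4 and 8 of 9 were upregulated. The sum of 6 adipocyte markers went the other way, at 145 to 158, 38.6 to 44.9, and 21.6 to 22.4 CPM, and that of 7 endothelial markers was 54.9 to 56.2, 13.9 to 17, and 37.9 to 40.8 CPM. The 5 tested adipocyte markers were downregulated in both visceral groups, while of the endothelial markers 6 were downregulated and 1 upregulated in PASCs, and 1 each way in EASCs. Among these, *Cidec* passed the filter with no EASC sample over its limit and *Emcn* with no PASC sample. No sample of one group reached the range of another in any of these 5 sums, and their part in the values of the SLRP genes was not tested. The sum of 10 tendon and cartilage markers, genes of tissues rich in *Fmod*, *Prelp*, and *Epyc*, ranged over 68.6 to 72.9, 57.9 to 67.4, and 57.3 to 59.9 CPM in that order. Of its 8 tested genes, *Acan*, *Comp*, *Mkx*, and *Matn3* passed the filter with 0 SASC samples over its limit, *Scx* with 1, and *Thbs4* with 0 EASC samples, so no count is read from them. *Sox9* was upregulated in both visceral groups, from a mean of 7.14 CPM in SASCs to 34.5 in PASCs and 47.1 in EASCs. *Cilp* was downregulated in both, from 61.2 to 8.43 and 2.79 CPM in the same order, so the similar sums hide opposite changes. Of 12 tested mesenchymal and preadipocyte markers, 3 were downregulated and 0 upregulated in PASCs, and 2 each way in EASCs. Without the limit on the fold, 4 were lower and 7 higher in each visceral group, where 69.7% of all genes passed in EASCs and 69.2% in PASCs. *Pdgfra*, a surface marker of fat progenitors, and *Dpp4* were downregulated in both groups and *Cd34* in PASCs, while *Eng* (1.77) and *Itgb1* (1.5) were upregulated in EASCs. *Pdgfra* had 1543 ± 37.0 CPM in SASCs, 278 ± 17.6 in PASCs, and 235 ± 8.46 in EASCs (SD, n = 3 each).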

How the data were processed

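RNA of 9 samples was sequenced as paired-end reads. The authors trimmed the reads with cutadapt and FastX-Toolkit, aligned them with TopHat, and deposited counts per gene, not normalized, with the gene lengths used here. The methods name the rat genome rn6 and the submitters' processing notes rn5, so coordinates are those of the table. The counting tool, its use of strand, and its treatment of overlapping genes are not given in the sources used here. Counts of Rn45s were 1.0003 to 1.001 times the sum of the rRNA genes inside it, so overlapping genes could each receive the same reads.

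Counts were scaled by TMM (factors 0.740 to 1.23), filtered with filterByExpr to 14770 genes, and fitted by edgeR 4.0.16 (R 4.3.3) with all 9 samples in a single model and no block. The quasi-likelihood test was adjusted by the Benjamini-Hochberg method over all genes, and intervals of log2 fold changes are 95% normal intervals. The common biological coefficient of variation was 0.0685. The chi-square over its degrees of freedom between replicates was 5.93 or more, above counting noise. Depth ranged from 17591916 to 30299032 counts.

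The members and lists were chosen with earlier results of these data known. Named were all members, related leucine-rich genes, overlapping and neighbouring genes with counts, the 5 genes most like *Dcn*, and up to 5 DEGs with the largest change of each list. *Bmp1*, *Mmp3*, and *Mmp13* of the proteases were named besides these. Alternatives were DESeq2 1.42.0, limma-trend (limma 3.58.1), no TMM, rRNA genes removed, no filter, the replicate number as a block, fits of 2 groups alone, other thresholds, raw counts for shares, and leaving out each replicate. The fit was also run on simulated counts, and the outcome is not reported here.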

Additional observations from a re-analysis of the deposited data

Results flagged for a closer look

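The change of *Fmod* differed between the visceral groups: its log2 fold change against SASCs was 2.21 in EASCs and 0.12 in PASCs, and the test of the difference itself, which is EASCs against PASCs, gave 2.09 (standard error 0.108, adjusted p = 8.48e-15 by edgeR). All 3 EASC samples lay above all 3 PASC samples. Over the alternatives this difference ranged from 1.99 to 2.21.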

How the results depend on the processing

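*Lum*, *Podn*, and *Fmod* stayed DEGs in EASCs against SASCs, and *Lum* and *Podn* in PASCs, with every alternative in which they were tested. At an adjusted p under 0.05 without a limit on the fold change, 6 members in place of 1 differed between EASCs and PASCs. Of these, *Dcn*, *Lum*, and *Bgn* were lost without TMM (adjusted p = 0.102, 0.0905, and 0.232 by edgeR). Without TMM, *Bgn* in PASCs turned to -0.092 and *Fmod* in PASCs to -0.20 against SASCs, and *Prelp* in PASCs reached -1.21 and became a DEG. With each replicate left out, *Fmod* in PASCs ranged from -0.0051 (without PASCs replicate 3) to 0.22. *Epyc* in PASCs (1.75) was no DEG with DESeq2 (1.77, adjusted p = 0.0691), without TMM (1.41, 0.139), without the filter (1.73, 0.0976), with limma-trend (1.11, 0.0536), and in 7 of 9 settings that left out a replicate (adjusted p up to 0.335). The cause was not tested.

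From raw counts without gene length, *Dcn* made up 49.0% of the family in SASCs, 5.23% in PASCs, and 5.29% in EASCs, and *Bgn* 20.1%, 79.3%, and 76.2%.

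With the replicate number as a block, *Lum*, *Podn*, *Fmod*, and *Epyc* were DEGs in EASCs against SASCs, where *Epyc* had to differ through the filter. *Lum* and *Podn* were DEGs in PASCs, and *Epyc* in PASCs was lost (1.71, adjusted p = 0.0709). Deviations of samples with the same number had correlations of -0.0348 to 0.0380 across genes, so the numbers were not taken as pairs.

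Depth limits *Epyc*, which lay at 1 to 16 counts in a sample.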
